A study of Schizosaccharomyces pombe with 6 samples.

Results

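The 5 genes ura1, ura2, ura3, ura4 and ura5 of the fission yeast Schizosaccharomyces pombe encode the enzymes that build the pyrimidine nucleotide UMP from small precursors. They were taken by symbol from the 5160 rows of the deposited gene table, which holds 1 row for each. It covers 6 RNA-seq libraries made from whole cells with oligo(dT) selection, 3 labelled WT (titled ZT) and 3 labelled as a dsk1 knockdown, a strain that the series text describes as a dsk1Δ mutant. dsk1 encodes a kinase of SR splicing proteins, and the study compared the transcripts of that mutant with those of the wild type. The labels name no other allele, auxotrophic marker, strain background or culture medium for either group. Nor do they state that the replicates were separate cultures, so the spread behind the p-values may be a technical one. ura4 was picked because its counts differed between the groups, and ura1, ura2, ura3 and ura5 were added as its pathway partners with their values known. The mutant-against-wild-type values of all 5 genes are therefore a description, with no test.

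UMP is made in a fixed series of steps. The Ura1 protein joins glutamine-derived carbamoyl phosphate to aspartate, the dihydroorotase Ura2 closes the ring, and the dihydroorotate dehydrogenase Ura3 oxidises it to orotate. The orotate phosphoribosyltransferase Ura5 adds a ribose phosphate, and the orotidine 5'-phosphate decarboxylase Ura4 removes a carboxyl group to give UMP, from which UTP and CTP follow. Cells that lack a working Ura4 need uracil or uridine from the medium, which enters through permeases and salvage enzymes, and resist 5-fluoroorotic acid. Because of both properties ura4 is a common selectable marker in fission yeast, where it is used to replace or tag other genes in strains whose own copy is deleted.

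Library totals were 15700362 to 19020530 counts. Levels below are CPM, counts relative to the library total, scaled by the TMM factors of edgeR (scaled CPM). Where levels of different genes are compared, the authors' FPKM, which divides by transcript length, is used. Libraries of a group were not alike. Wild-type replicate 2 lay at -36.7 on the first principal component (61.9% of the variance), against -8.22 and -0.60 for the other wild-type libraries and 11.4 to 18.5 for the mutant libraries. Of 4558 genes with a mean of at least 10 CPM, 34.3% had their highest level in wild-type replicate 2. In RNA from whole cultures, fewer cells with a transcript and less of it per cell cannot be told apart. The targeted gene itself, dsk1, had 99.4, 102 and 99.96 scaled CPM in the wild type and 13.7, 11.3 and 11.9 scaled CPM in the mutant, and fell by 3.03 on the log2 scale (SE 0.13, edgeR quasi-likelihood test, adjusted p = 1.34e-04). The gene lsc1 on the other strand overlaps 28.0% of the dsk1 exon, and how much of the remaining dsk1 signal it holds was not tested.

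ura4 (SPCC330.05c, on chromosome III) had 0 counts in each of the 3 wild-type libraries and 1957, 1392 and 1710 counts in mutant replicates 1, 2 and 3. In scaled CPM the mutant libraries stood at 98.3, 74.9 and 115, a mean of 96.2 ± 20.2 (SD, n = 3). The groups thus did not overlap, and the transcript was undetected in the wild type at these depths. The upper limit set for a count of 0, 3 counts in a library, corresponds to 0.160 to 0.202 scaled CPM in the wild-type libraries. Against that floor ura4 was at least 534.3-fold higher in the mutant, a bound that covers counting error only. Among all genes, the mutant mean of ura4 in FPKM was higher than that of 72.7% of the rows. In the authors' deposited table its log2 fold change is 16.38, which follows from their setting of a mean of 0 to 0.001 FPKM, and it is the only one of the 5 ura genes in their filtered list of 135 genes.

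The presence of ura4 reads and the drop in dsk1 reads fall on the same 3 libraries. An effect of dsk1 and a strain difference at or with ura4 therefore cannot be told apart. ura4 has no intron in the RefSeq annotation (assembly ASM294v3), and no annotated gene overlaps its exon, so its reads are not shared with a gene on the other strand. All 5 ura genes passed the filter on low counts, ura4 only through the mutant libraries. Of the 5, ura4 was called at an adjusted p under 0.05 and the other 4 were not, where 2.03% of the 4987 genes tested were called. As the genes were chosen with this contrast known, nothing is read from that count.

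**Figure D1:**
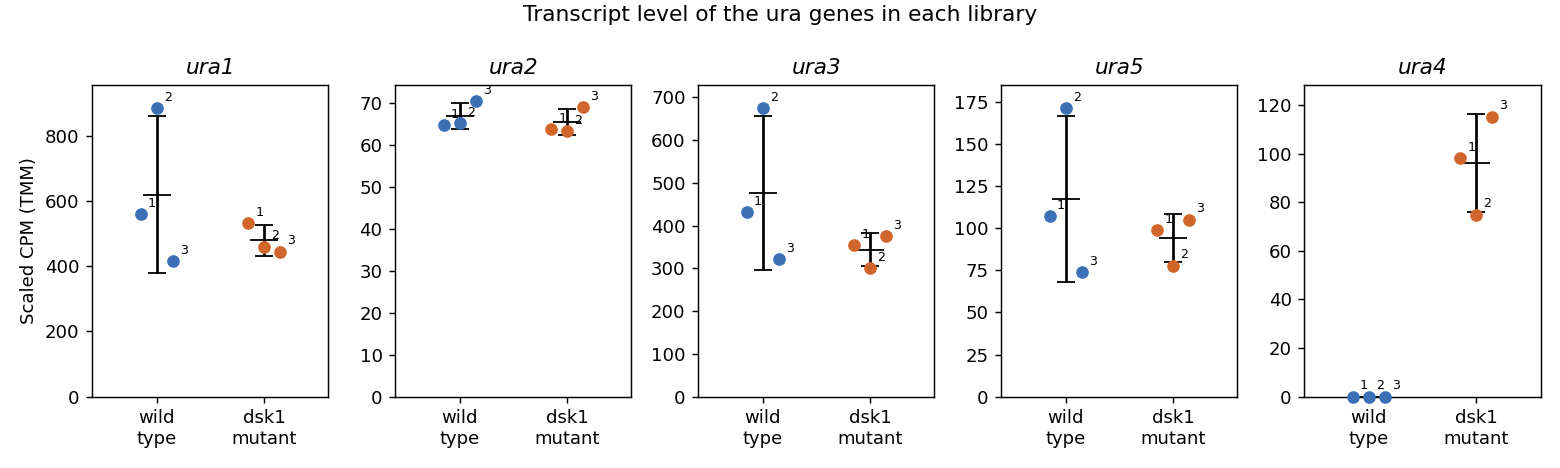
Level of each ura gene in scaled CPM (relative to the library total, with TMM scaling), 1 point per library with its replicate number, horizontal bar for the mean and vertical bar for the SD of 3 libraries; each panel has its own axis from 0. Wild-type and mutant libraries overlap for ura1, ura2, ura3 and ura5, wild-type replicate 2 is the highest library for ura1, ura3 and ura5, and ura4 is at 0 in the wild type and at 74.9 to 115 in the mutant.

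ura1 (SPAC22G7.06c), for the enzyme of the first steps, had 560, 886 and 415 scaled CPM in wild-type replicates 1, 2 and 3. In the mutant libraries it had 533, 461 and 445 scaled CPM. The mutant libraries lay inside the range of the wild-type libraries, whose spread was set by replicate 2. The log2 fold change, mutant over wild type, was -0.37 (SE 0.26), and -0.022 without wild-type replicate 2.

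ura2 (SPAC16.03c), the dihydroorotase gene, was the most even of the ura genes. The wild-type libraries had 64.8, 65.3 and 70.4 scaled CPM of it, and the mutant ones 63.9, 63.4 and 69.02. Its log2 fold change was -0.031 (SE 0.11), and it lay slightly above 0, at 0.0092, when counts were scaled by the library total alone. The highest and lowest of its 6 libraries differed 1.11-fold, and 0.9% of genes with a mean of at least 10 CPM had a smaller range. It is also the only one of the 5 with an intron in the RefSeq annotation, of which it has 1.

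ura3 (SPAC57A10.12c), for the dehydrogenase, had 431, 675 and 322 scaled CPM in the wild type and 354, 301 and 376 scaled CPM in the mutant. Here the groups overlapped, with mutant replicates 1 and 3 above wild-type replicate 3. Its log2 fold change was -0.47 (SE 0.26), and -0.13 without wild-type replicate 2. A noncoding gene on the other strand covers 79.8% of its exon, and since the use of strand in counting is not given in the sources used here, reads of the 2 cannot be told apart.

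ura5 (SPBC725.15), for the phosphoribosyltransferase that makes the substrate of Ura4, had 107, 171 and 74.2 scaled CPM in the wild type and 99.01, 77.9 and 105 scaled CPM in the mutant. All mutant libraries lay between the lowest and the highest wild-type library. Its log2 fold change was -0.32 (SE 0.29), and it turned to 0.055 without wild-type replicate 2. A noncoding gene on the other strand covers 33.1% of its exon.

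Compared per length, the order of the ura genes in the wild type was ura3, ura1, ura5, ura2 and ura4. The ura3 transcript stood at 269.6 ± 79.5 FPKM (SD, n = 3), above every other ura gene in each wild-type library. ura1 and ura5 stood at 86.2 ± 26.2 and 86.0 ± 28.97 FPKM (SD, n = 3), a gap far smaller than their spread. ura2 was at 41.8 ± 4.69 FPKM (SD, n = 3), below the lowest library of either, and ura4 is listed at 0 in all 3.

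In the mutant libraries ura3 again led, with 204 ± 15.7 FPKM (SD, n = 3), and ura2 was last with 42.1 ± 0.67 FPKM (SD, n = 3). ura4 came second with 90.4, 69.8 and 95.7 FPKM. Next were ura5, with 78.6, 62.7 and 75.4 FPKM, and ura1, with 80.2, 70.3 and 60.6 FPKM. ura4 was above ura5 in each mutant library, while its range overlapped those of ura5 and ura1, so the order of these 3 is not resolved beyond the spread. The authors' FPKM and counts imply 1 fixed length per gene in every library, 1138 bases for ura4 against 1037 bases of exon in RefSeq. The implied and RefSeq lengths were 1579 and 1447 bases for ura2, and 1707 and 1789 bases for ura3. Those of ura1 (6951 and 6948 bases) and ura5 (1318 and 1316 bases) lay close together. Scaled CPM per kilobase of RefSeq exon differs from FPKM in the library scaling as well as the length. By it ura1 and ura5 changed places in the wild type, and ura3, ura2 and ura4 kept theirs there. In the mutant that scaling changed no position.

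**Figure D2:**
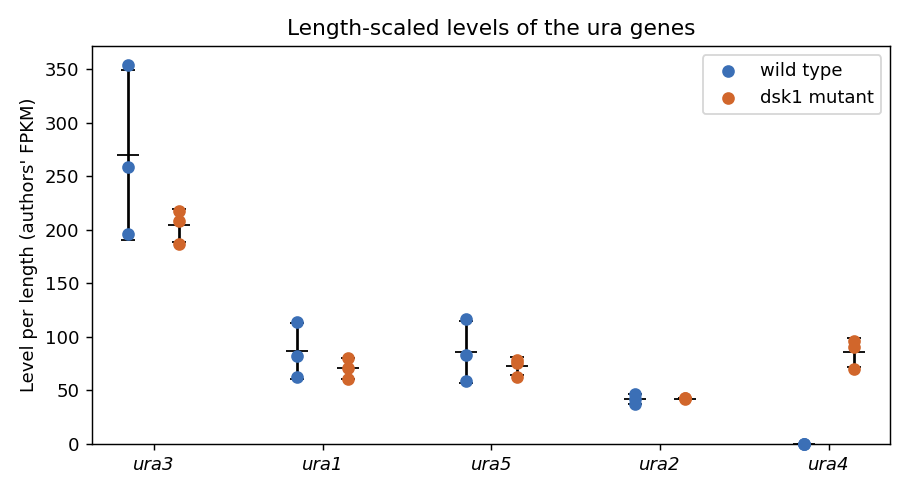
Length-scaled level of the ura genes in the authors' FPKM, 1 point per library, blue for the wild type and orange for the dsk1 mutant, with mean and SD of 3 libraries as bars. ura3 is the highest in both groups, ura2 the lowest of the detected genes, and ura4 lies at 0 in the wild type and among ura1 and ura5 in the mutant.

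Across the wild-type libraries ura1, ura3 and ura5 moved with each other and not with ura2. On the log2 scale, each gene set to its own mean over the 6 libraries, wild-type replicate 2 was at 0.74 for ura1, 0.78 for ura3 and 0.75 for ura5, but at -0.016 for ura2. Wild-type replicate 3 was at -0.36, -0.29 and -0.45 for the same 3 genes and at 0.091 for ura2. The gene cts1, for the CTP synthase that turns UTP into CTP, was likewise at 0.91 in wild-type replicate 2 and -0.44 in wild-type replicate 3, but at -0.15 in wild-type replicate 1, where ura1, ura3 and ura5 were at 0.075, 0.13 and 0.074. Of the mutant libraries, replicate 3 was the lowest for ura1 (-0.25) but the highest for ura3 (-0.069) and ura5 (0.049). From the lowest to the highest library, ura1 spanned 2.132-fold, ura3 2.25-fold, ura5 2.30-fold and cts1 2.55-fold. The median range of all genes with at least 10 CPM was 0.63 on the log2 scale, and 82.5%, 85.8% and 86.8% of them had a smaller range than ura1, ura3 and ura5. These values share the library that stood apart from the rest on the first component, and its part in them was not tested.

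**Figure D3:**
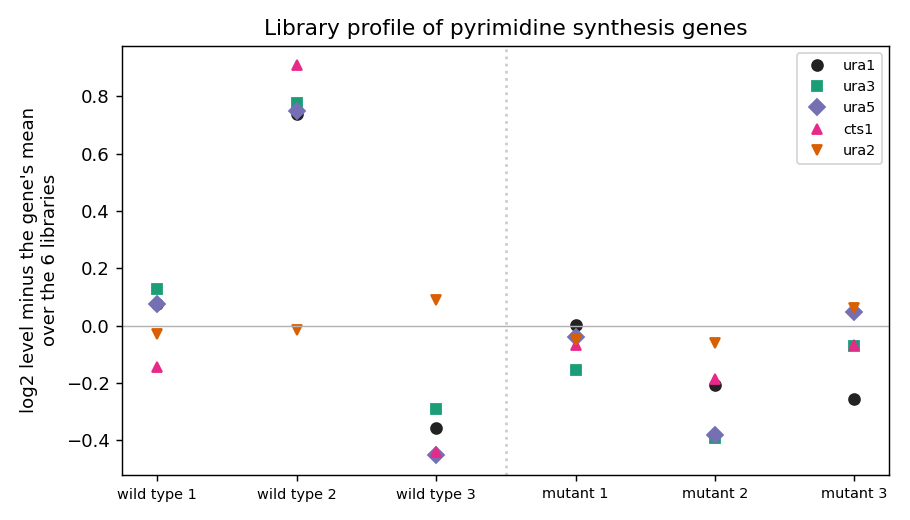
Log2 level of ura1, ura2, ura3, ura5 and cts1 in each library, minus the gene's mean over the 6 libraries; the dotted line parts wild type from mutant. ura1, ura3, ura5 and cts1 lie at 0.74 to 0.91 in wild-type replicate 2 and at -0.45 to -0.29 in wild-type replicate 3, while ura2 stays within 0.091 of 0 in every library.

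The closeness of 2 profiles was measured by the root mean square of their differences over the 6 libraries, in log2 units, and given as a description, since the genes share the same libraries. Among 4557 genes ranked for each, ura3 stood 9th nearest to ura5 (0.097), and ura5 stood 24th nearest to ura3. ura1 was 75th nearest to ura3, at 0.130, and 55th nearest to ura5, at 0.150. ura2 ranked 1983rd nearest to ura3, at 0.395. The gene nearest to ura5 was gua1, for the IMP dehydrogenase of guanine nucleotide synthesis, at 0.041, then SPBC16H5.08c, a predicted ribosome biogenesis ATPase, at 0.076, and SPBC3H7.02, a predicted sulfate transporter, at 0.082. Nearest to ura3 were SPBC56F2.07c, a predicted ATPase that recycles ribosome biogenesis factors (0.043), utp4, for a predicted U3 snoRNP protein (0.045), and SPAC25B8.18, a predicted mitochondrial thioredoxin-related protein (0.045). Nearest to ura1 were the mannosyltransferase gene imt3 (0.044), imp4, for another U3 snoRNP-associated protein (0.064), and mpe1, for a predicted ubiquitin ligase of mRNA cleavage (0.067). Nearest to ura2 were tim10, for a chaperone of the mitochondrial intermembrane space (0.025), SPBC3E7.05c, a predicted mitofilin ortholog (0.026), and the kinase gene ksg1 (0.026).

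For ura4, likeness was taken as 0 counts in every library of a group and at least 10 counts in each library of the other. Besides ura4, 2 of the 5160 rows had that shape. SPAC212.01c, of the fission-yeast-specific DUF999 family, whose related copies may share reads, was at 0 in the wild type, while mutant replicates 1, 2 and 3 had 52, 44 and 23 counts of it, at least 12.1-fold higher. The meiotic gene mug97 had 108, 108 and 48 counts in the wild type and 0 in the mutant, at least 31.6-fold lower, and a gene on the other strand covers all of it. The mutant level of ura4, 96.2 scaled CPM, was far above that of SPAC212.01c, at 2.18 scaled CPM.

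The 3 coding genes on each side of ura4 in the RefSeq annotation were read next. Of the 6, 5 were tested, 1 fell, 0 rose and 4 did not pass, where 1.58% of all tested genes were called lower. Unadjusted p-values under 0.05 were found for 4 of the 5, all lower, against 13.5% of all tested genes that were lower at that p. SPCC330.03c, a predicted NADPH-hemoprotein reductase and the third gene on the left, fell by 1.65 on the log2 scale (SE 0.23, edgeR, adjusted p = 0.0228). Its level was 42.0, 64.6 and 40.96 scaled CPM in the wild type and 14.7, 18.7 and 13.5 in the mutant, so the groups did not overlap, as was true of 32.1% of all tested genes. The call was kept without wild-type replicate 2 (-1.40) or 3 (-1.76). It was lost without wild-type replicate 1 (-1.75, adjusted p = 0.0831) or mutant replicate 1 (-1.60, adjusted p = 0.163), 2 (-1.80, adjusted p = 0.0897) or 3 (-1.56, adjusted p = 0.118). Over all alternatives its adjusted p ranged from 2.22e-08 to 0.163.

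The genes directly beside ura4 had few counts. On the left tam14, a conserved fungal gene, had 0 to 4 counts in a library and was not tested, and mug135 was at -0.50 (SE 0.20, edgeR, adjusted p = 0.202), or -0.33 without wild-type replicate 3. On the right new25, for a SAP domain protein, had 37, 82 and 34 counts in the wild type and 32, 20 and 16 in the mutant, with a log2 fold change of -1.31 that moved to -0.66 without wild-type replicate 2 (edgeR, adjusted p = 0.171 and 0.257). Next to it pmp20, for a peroxiredoxin, had 931, 1318 and 645 scaled CPM in the wild type and 670, 491 and 699 in the mutant (-0.64, and -0.34 without wild-type replicate 2; edgeR, adjusted p = 0.218 with all libraries). SPCC330.07c, a predicted transporter, was at -0.048, and at 0.061 without mutant replicate 3. Thus ura4 went from 0 to 96.2 scaled CPM while the 5 tested neighbours had log2 fold changes between -1.65 and -0.048 with all libraries.

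Of the 6 coding genes beside dsk1, edgeR called 0, where it called 2.03% of all tested genes. An unadjusted p under 0.05 was reached by 3, all of them lower (13.5% over all tested genes), and 1 lower gene passed with DESeq2, which called 7.10% of all genes lower. The nearest, lsc1, for a cyclin partner of the kinase Lsk1, lies on the other strand and shares 76.3% of its exons with dsk1. It was at 0.51 (SE 0.29), with 18.3, 9.41 and 22.0 scaled CPM in the wild type and 22.5, 25.7 and 22.8 in the mutant, and at 0.23 without wild-type replicate 2 or 0.77 without wild-type replicate 3. The other left neighbours pdf1, for a thioesterase and phosphatase fusion, and SPBC530.11c, a predicted zinc-cluster transcription factor, were at -0.079 and -0.27. On the right are 3 predicted spermidine family transporters. SPBC530.15c was at -0.091, SPBC36.01c at -0.61 (edgeR, adjusted p = 0.109) and SPBC36.02c at -1.04 (edgeR, adjusted p = 0.144). SPBC36.01c passed with DESeq2 (-0.61, adjusted p = 0.0272), and over the alternatives its adjusted p ranged from 0.0272 to 0.325.

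**Figure D4:**
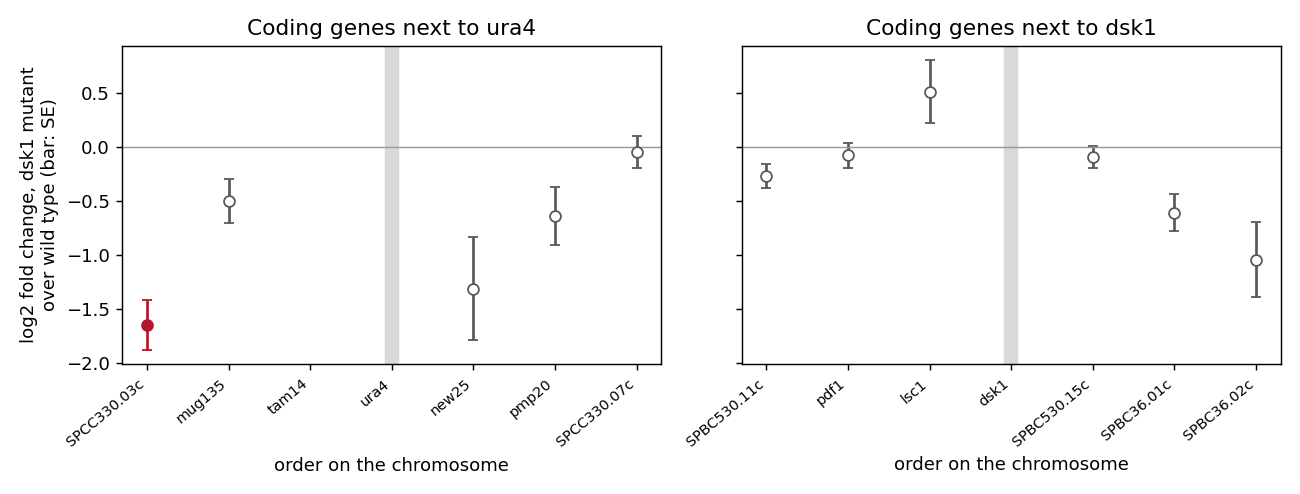
Log2 fold change, mutant over wild type, with SE as bars, for the 3 coding genes on each side of ura4 (left) and dsk1 (right) in chromosome order; filled red marks an edgeR adjusted p under 0.05, tam14 was not tested, and the grey band is ura4 or dsk1 itself. SPCC330.03c at -1.65 is the only one of these 12 genes that passed.

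Other genes of pyrimidine metabolism were taken from the annotation in the deposited table, by KEGG pathway or by words in the description. Rows whose description held RNA, pseudouridine, polymerase, UDP or exonuclease were left out. The KEGG pyrimidine pathway has 65 rows there, so the list is not the whole annotated pathway. Added by symbol were gln1, urg1, urg2, urg3, fur4, spd1, arg4 and arg5, whether or not that annotation held them. The list came to 43 genes, of which 41 were tested. In the edgeR test 1 rose and 0 fell, which leaves 40 that did not pass, where 0.441% of tested genes were called higher and 1.58% lower. Unadjusted p-values under 0.05 were found for 6 higher and 7 lower genes, against 459 (9.20%) and 672 (13.5%) of the 4987 tested. Their median log2 fold change was 0.072, with 23 above and 18 below 0, and that of all tested genes was -3e-04. The gene that rose was SPBC800.11, for a predicted nucleoside hydrolase that prefers inosine and uridine. It had 23.7, 19.9 and 21.9 scaled CPM in the wild type and 37.9, 33.8 and 38.1 in the mutant, 1.67-fold higher (log2 fold change 0.74, SE 0.14, edgeR, adjusted p = 0.0461). All mutant libraries lay above all wild-type libraries, where 32.1% of all tested genes had no overlap in either direction. Among the scalings, tools and left-out libraries tried, the call was lost with library totals as the scaling (0.78, adjusted p = 0.0795), in the limma fits, and without any library other than wild-type replicate 2 (0.71 to 0.81, adjusted p = 0.0653 to 0.266), and over all alternatives the adjusted p ranged from 1.23e-04 to 0.266.

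Salvage and uptake genes, 15 listed and 14 tested, include those that bring free uracil, uridine and cytosine back to UMP. The group also holds urg1, urg3 and SPAC1805.16c, whose annotations name no step from these to UMP. Besides SPBC800.11, none passed the edgeR test over all genes. Unadjusted p-values under 0.05 were found for 5 higher and 3 lower salvage genes, against 9.20% and 13.5% of all tested genes. The urg1, urg2 and urg3 genes are known in fission yeast for induction by uracil, and urg1 and urg2 had the highest FPKM of the list in both groups. urg1, annotated as a GTP cyclohydrolase, had 1778, 3885 and 3117 scaled CPM in the wild type and 5829, 4337 and 7636 in the mutant. All mutant libraries of urg1 were above all wild-type libraries, with a log2 fold change of 1.02 (SE 0.34, edgeR, adjusted p = 0.142). Groups did not overlap, in either direction, for 32.1% of all tested genes.

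urg2, for a predicted uracil phosphoribosyltransferase, had 788, 1799 and 985 scaled CPM in the wild type and 2083, 1497 and 2684 in the mutant, and the groups overlapped (log2 fold change 0.81, SE 0.35, edgeR, adjusted p = 0.219). urg3, for a DUF1688 protein, had 195, 301 and 240 scaled CPM in the wild type and 411, 292 and 500 in the mutant, again with overlap (log2 fold change 0.71, SE 0.23, edgeR, adjusted p = 0.141). SPAC1399.04c, a further predicted uracil phosphoribosyltransferase that RefSeq names uck2, had 26.3, 19.1 and 48.9 scaled CPM in the wild type and 99.3, 67.1 and 94.97 in the mutant. That is a log2 fold change of 1.47 (SE 0.34) with no overlap, as for 32.1% of all tested genes. It did not pass (edgeR, adjusted p = 0.0709).

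The calls on these 4 genes depended on the tool and on single libraries. Without wild-type replicate 2, edgeR called all 4 higher, urg1 at 1.28 (adjusted p = 0.0403), urg2 at 1.24 (0.0209), urg3 at 0.88 (0.0375) and SPAC1399.04c at 1.21 (0.0273). That fit called more genes throughout, 165 of 4999 higher (3.30%) against 22 with all libraries. SPAC1399.04c also passed without wild-type replicate 3 (1.94, adjusted p = 0.0140). DESeq2, which called 4.01% of all genes higher, called urg1, urg3 and SPAC1399.04c on all 6 libraries (adjusted p = 0.0190, 0.0477 and 7.44e-04). The authors' deposited table gives these 3 the same adjusted p and urg2 0.105, and the authors' filtered list holds urg1 and SPAC1399.04c but not urg3 or urg2. Over the alternatives the adjusted p reached 0.377 for urg1, 0.456 for urg2, 0.387 for urg3 and 0.298 for SPAC1399.04c. Each of the 4 had a log2 fold change above 0 under every alternative, from 0.52 to 1.94. In the RefSeq annotation urg2, urg3, urg1, toe1, SPAC1399.04c and fur4 are 6 successive coding genes of chromosome I. Of these, toe1 is not on the pyrimidine list, and its level is not given here. The last of the 6, the uracil permease gene fur4, did not pass (log2 fold change -0.52, edgeR, adjusted p = 0.231). It had 43.3, 72.5 and 43.1 scaled CPM in the wild type and 37.02, 32.1 and 41.7 in the mutant. Leaving out wild-type replicate 2 moved fur4 to -0.23.

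Among other salvage genes the cytosine deaminase gene SPCC965.14c was at -0.45 and the purine nucleoside phosphorylase gene SPAC1805.16c at -0.67 (edgeR, adjusted p = 0.136 and 0.101). The cytidine deaminase gene cdd1, at -0.43 (edgeR, adjusted p = 0.186), shares 94.3% of its exons with a coding gene on the other strand. SPAC1805.16c passed with DESeq2 (adjusted p = 0.0217) and without wild-type replicate 2 (-0.46, adjusted p = 0.0435), and its adjusted p reached 0.371 over the alternatives. Noncoding genes on the other strand cover 100% of SPCC965.14c, 92.9% of SPAC1805.16c, 87.6% of urg1 and 43.5% of urg3, so their reads are uncertain too. No annotated gene overlaps SPBC800.11, SPAC1399.04c or urg2. Such cover is not given for every gene named in the text. It is 100% for arg4, cdc22 and his5, 88.4% for mug135, 88.2% for arg5, 86.5% for ade6, 83.3% for ndk1 and 73.4% for arg3, among others.

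The genes between UMP and CTP, 3 in number, did not pass, where edgeR called 2.03% of all tested genes. The uridylate kinase gene SPCC1795.05c was at -0.44 (SE 0.19, and -0.24 without wild-type replicate 2), the nucleoside diphosphate kinase gene ndk1 at 0.016 (SE 0.14), and cts1 at -0.34 (SE 0.33), with edgeR adjusted p = 0.222, 0.950 and 0.550. cts1 had 458, 950 and 373 scaled CPM in the wild type and 483, 445 and 483 in the mutant, so its mutant libraries were close to each other and its wild-type libraries were not, and its log2 fold change turned to 0.18 without wild-type replicate 2.

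The 7 genes grouped as precursor supply include arg3, arg4 and arg5, which are genes of arginine synthesis. Of the 7, edgeR called 0, where it called 2.03% of all tested genes. Unadjusted p-values under 0.05 were found for prs5, which was higher, and for arg3 and arg5, which were lower. Of all tested genes, 9.20% were higher and 13.5% lower at that p. arg4, for the arginine-specific synthase of carbamoyl phosphate, was at -0.10, while its partner subunit arg5 was at -0.76 (SE 0.21, edgeR, adjusted p = 0.105). arg3, for the ornithine carbamoyltransferase that spends carbamoyl phosphate on arginine, was at -0.85 (SE 0.17, edgeR, adjusted p = 0.0512), with 101, 145 and 98.7 scaled CPM in the wild type and 63.6, 64.4 and 63.2 in the mutant. It passed with library totals, with DESeq2 and without wild-type replicate 2 or 3 (-0.64 and -0.94), with an adjusted p of 7.15e-04 to 0.274 over the alternatives. prs5, for a phosphoribosyl pyrophosphate synthase, was at 0.57 (SE 0.17, edgeR, adjusted p = 0.122), and DESeq2 called arg5 and prs5 (adjusted p = 0.0192 and 0.0403), which reached 0.358 and 0.367 over the alternatives.

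Of 8 deoxynucleotide genes 7 were tested and edgeR called 0, where it called 2.03% of all tested genes. An unadjusted p under 0.05 was found for tmp1 alone, which was lower, as were 13.5% of all tested genes at that p. The thymidylate kinase gene tmp1 was at -1.35 (SE 0.42, edgeR, adjusted p = 0.130), with 21.4, 45.4 and 14.5 scaled CPM in the wild type and 11.3, 12.9 and 7.62 in the mutant. It moved to -0.76 without wild-type replicate 2, DESeq2 called it (adjusted p = 0.0196; 0.0196 to 0.372 over the alternatives), and a coding gene on the other strand covers 91.3% of it. The ribonucleotide reductase genes cdc22 and suc22 were at 0.094 (-0.073 without wild-type replicate 1) and 0.19 (0.040 without wild-type replicate 2), and the reductase inhibitor gene spd1, with the highest FPKM of these, at -0.056. A further 10 listed genes were caught by their annotation and act mostly elsewhere, in uracil removal from DNA, DNA priming, pseudouridylation or riboflavin synthesis. Of those 10, edgeR, DESeq2 and limma called 0. Over all genes edgeR called 2.03%, and DESeq2 called 4.01% higher and 7.10% lower, so nothing is read from that count. Only SPBC21C3.10c, of riboflavin synthesis, had an unadjusted p under 0.05, where 13.5% of all tested genes were lower at that p. It was at -0.58 (edgeR, adjusted p = 0.206), or -0.28 without wild-type replicate 2.

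**Figure D5:**
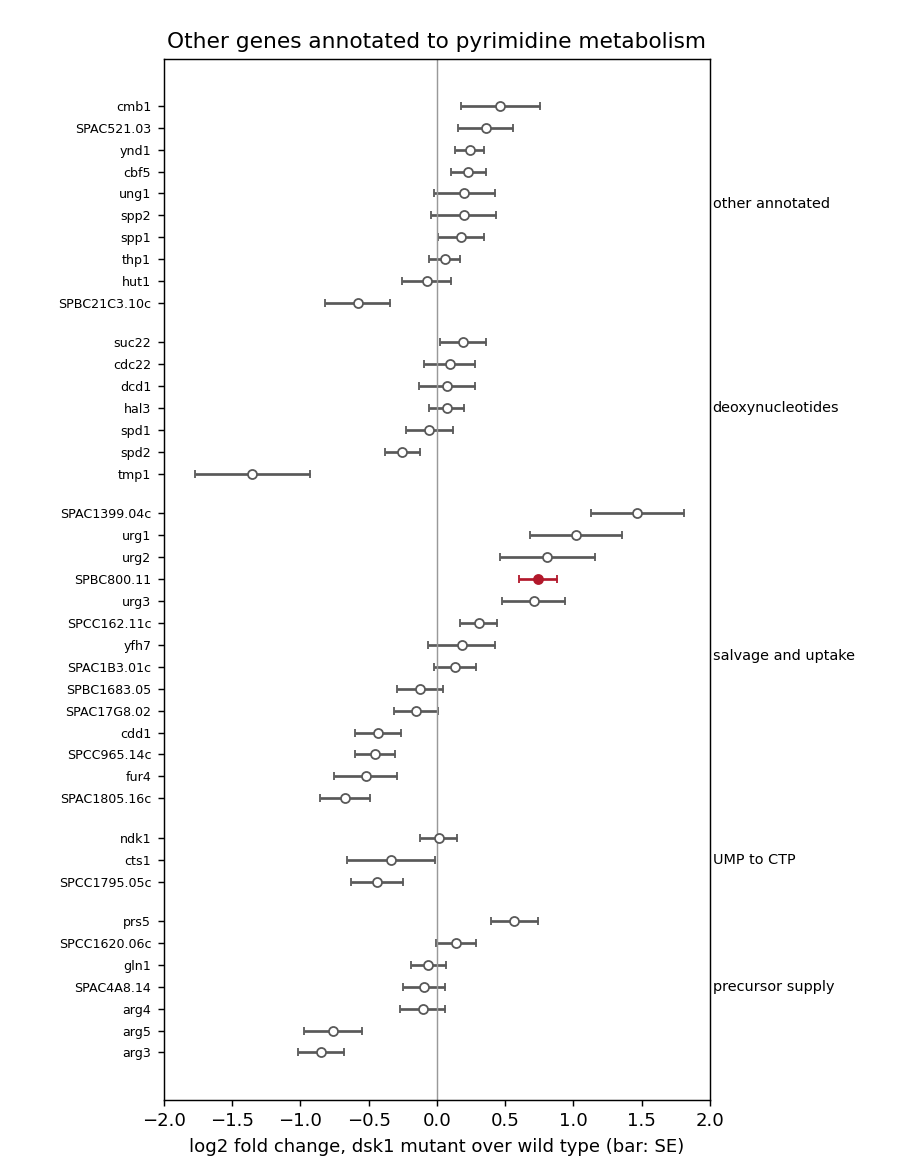
Log2 fold change, mutant over wild type, with SE as bars, of the 41 tested pyrimidine genes other than ura1 to ura5, grouped by role. They were listed by annotation or by symbol. Filled red marks an edgeR adjusted p under 0.05. SPBC800.11 at 0.74 is the filled point, and SPAC1399.04c, urg1, urg2 and urg3 lie at 0.71 to 1.47 without passing.

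Genes that serve as auxotrophic or mating-type markers were read beside ura4, since the labels give no strain genotype. Of 14 such rows 11 were tested and edgeR called 0, where it called 2.03% of all tested genes. Unadjusted p-values under 0.05 were found for 1 higher and 4 lower markers, against 9.20% and 13.5% of all tested genes. DESeq2 called 3 markers lower, against 7.10% of all genes, and limma on log2(FPKM + 1) called 1 lower, against 1.29%. arg3, described above, is on this list too. None of the tested markers was at 0 in a group, unlike ura4, which is not on this list. A level above 0 does not show whether a marker allele works, so the marker genotype of the strains was not tested. leu1, for the leucine enzyme isopropylmalate dehydrogenase, had 691, 849 and 640 scaled CPM in the wild type and 379, 366 and 480 in the mutant. Its log2 fold change was -0.83 (SE 0.17, edgeR, adjusted p = 0.0512), it passed with 7 of 15 alternatives, and its adjusted p ranged from 4.11e-04 to 0.279. A noncoding gene on the other strand covers 92.1% of leu1. his3, for an aminotransferase of histidine synthesis, was at -0.46 (edgeR, adjusted p = 0.121, and 0.0186 to 0.402 over the alternatives). It shares 92.6% of its exons with a coding gene on the other strand, as lys1 does with 100%.

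The other markers were closer to 0. his5 was at -0.35, lys1 at -0.25, his1 at -0.22, ade6 at -0.26, his7 at 0.093, ade1 at 0.076 and the permease gene can1 at 0.40, with edgeR adjusted p between 0.148 and 0.748. Without wild-type replicate 2, ade6 turned to 0.040 and his5 moved to -0.19. The direction also turned for ade1 without wild-type replicate 3 (-0.032) and for his7 without mutant replicate 3 (-0.014). The mating-type gene mat1-Mc had 52.2, 36.1 and 44.2 scaled CPM in the wild type and 48.8, 41.4 and 62.3 in the mutant, so both groups held reads of the M type (log2 fold change 0.20, edgeR, adjusted p = 0.558). The rows mat1-Mi, mat3-Mc and mat3-Mm are listed at 0 in all libraries, and since the M cassettes are copies of each other, reads of the mat3 copies may be counted elsewhere.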

How the data were processed

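RNA was measured in 6 libraries, grouped by the genotype in the labels. Per the labels' protocols, RNA was extracted with Trizol, selected with oligo(dT), amplified by PCR and sequenced. DESeq2, RSEM, StringTie, HISAT2, Bowtie2 and fastp are listed in the submitters' processing notes. Neither the genome build nor the use of strand is given in the sources used here. The authors deposited, per the file headers, whole-number counts and FPKM per gene and library, the mean FPKM of each group, a log2 fold change of those means, a p-value and an adjusted p-value.

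Counts were tested over the whole table by edgeR 4.0.16 (R 4.3.3, quasi-likelihood test), with TMM scaling, the default filter (4987 of 5160 rows kept) and genotype as the only term. P-values were adjusted by Benjamini-Hochberg over all tested genes, with calls under 0.05. Alternatives were other scalings and filters, DESeq2 1.42.0, limma 3.58.1 on log2(FPKM + 1) and log2(FPKM + 0.1), a replicate block, a threshold of 0.01 and each library left out. The code was tested on simulated data. RefSeq ASM294v3 matched 5109 rows and gave neighbours, exon lengths and overlaps. Its coordinates are not given, as the authors' build is unknown, and no sequence was read. Replicates of a group differed by more than sampling noise (chi-square per degree of freedom 26.7 to 279.6). Floors cover counting error only, as reads from PCR without molecular identifiers do not count independent molecules.

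The ura genes, the lists and the tests were chosen with earlier results of these data known. Named genes are the ura genes, dsk1, the coding neighbours of ura4 and dsk1, the called and 12 further genes of lowest adjusted p among the pyrimidine genes, the most abundant gene of each role and each detected marker. To these come the 3 genes nearest in profile to a ura gene and genes at 0 in a group. SPCC1795.05c, ndk1, fur4, cdc22, suc22, dut1 and SPBC1683.06c were chosen after their values were seen.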

Additional observations from a re-analysis of the deposited data

How the results depend on the processing

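The log2 fold changes of ura1, ura2, ura3 and ura5 moved by less than 1 SD of their libraries under every alternative. For ura1, ura3 and ura5 that SD is widened by wild-type replicate 2, the library whose removal moved them most. The rule is therefore a wide one, and by it the turn of ura5 from -0.32 to 0.055 did not count as a move. The ranges with a library left out were -0.59 to -0.022 for ura1, -0.071 to 0.0083 for ura2, -0.69 to -0.13 for ura3 and -0.57 to 0.055 for ura5. For ura4 the fitted value was 13.7 and 13.6 to 13.8 with a library left out, 13.1 with DESeq2, 6.42 with limma on log2(FPKM + 1) (both filters) and 9.73 with log2(FPKM + 0.1), since it depends on what is added to a count of 0. Of the 10 positions in the length-scaled order, 8 to 10 were kept with a library left out. The edgeR test called 101 genes, DESeq2 568, limma with 0.1 added 63, and the threshold of 0.01 kept 5. With a library left out it called 3 (without mutant replicate 3) to 466 (without wild-type replicate 2).

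The 1 call among pyrimidine genes became 9 with DESeq2, 0 in each limma fit and at 0.01, and 0 to 7 with a library left out, with 7 without wild-type replicate 2. With library totals as the scaling the 1 gene called was arg3, in place of SPBC800.11. The 0 calls among markers became 2 with library totals, 3 with DESeq2, 1 in each limma fit, and 0 to 3 with a library left out, with 3 without wild-type replicate 2. The 1 call among neighbours became 2 with DESeq2, 0 at 0.01, and 0 to 1 with a library left out. The cause of these changes was not tested.

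Replicate numbers share no stated origin, and deviations of same-numbered libraries correlated at 0.14, -0.40 and -0.19, so they do not pair the samples. With a replicate block edgeR called 3 genes in all, 0 of the pyrimidine genes, 0 markers and 0 neighbours, and ura4 was not called. Depth limits statements on tam14, new25 and the wild-type level of ura4.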

Other observations

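The dUTPase gene dut1, which removes dUTP and makes the precursor of thymidylate, had 64 counts in wild-type replicate 2 and 0 in the other 5 libraries. A coding gene on the other strand covers 100% of it, so its reads are uncertain, and it did not pass the filter on low counts. The predicted uridine ribohydrolase gene SPBC1683.06c is listed at 0 in all 6 libraries.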
